A study of Mus musculus with 14 samples.

Results

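The genes described here are Spi1, Cd33, Inpp5d, Plcg2, Abi3, Ptk2b, Bin1, Picalm, Cd2ap and Sorl1, mouse counterparts of human genes that lie at loci associated with Alzheimer's disease (AD) risk. They were chosen by name, with earlier results of these data known, and are 10 of the 43346 genes in the count table. Messenger RNA was sequenced from a brain cross-section holding hippocampal and cortical tissue of 14 female mice aged 23 months. The 4 NTG mice (mice 7 to 10) were non-transgenic littermates, which the paper describes as vehicle-treated. The 5 APP/PS1 mice (mice 16 to 20) carried human APP and PS1 transgenes with familial AD mutations and drank vehicle-containing water; their label reads non-treated. The 5 APP/PS1+CP2 mice (mice 21 to 25) had the same genotype and received CP2, a tricyclic pyrone that mildly inhibits mitochondrial complex I, at 25 mg/kg/day in drinking water from 9 months of age, that is for 14 months. All groups had the strain label C57BL/6;SJL-Tg, and the genotype label of both transgenic groups was APP/PS1 +/+. NTG mice given CP2 were not analysed here, so an effect of the compound outside the transgenic background cannot be read from these samples.

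Spi1 encodes PU.1, the transcription factor that directs the development of microglia and other myeloid cells. Cd33, Inpp5d, Plcg2 and Abi3 encode a sialic acid-binding receptor, a lipid phosphatase, a phospholipase and an actin regulator that act at or below the receptors of microglia, among them TREM2, which senses lipids and amyloid and signals through ITAM adaptors. Bin1, Picalm, Cd2ap and Sorl1 act in endocytosis and in the sorting of cargo such as the amyloid precursor protein, and Ptk2b encodes the kinase Pyk2, which is abundant in forebrain neurons. The genes of endocytosis and sorting and Ptk2b are known to be used by neurons, oligodendrocytes or vessel cells as well as by microglia.

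The name of the set, microglial AD risk genes, was first checked against cell type markers in these libraries. In whole tissue, a change in the number of cells of a type and a change in RNA per cell cannot be told apart. Of 12 general microglia markers, 10 rose in APP/PS1 over NTG mice (edgeR quasi-likelihood test, Benjamini-Hochberg adjusted p under 0.05 over all genes tested), with a median log2 fold change of 1.26, and their summed level was 519 to 531 CPM (read counts scaled to the size of the library) in the 4 NTG mice, 1026 to 1595 in the APP/PS1 mice and 907 to 1348 in the CP2-treated mice. Of 10 homeostatic microglia markers 5 rose (3 without NTG mouse 9, median log2 fold change 0.42), and of 14 genes known from microglia at amyloid plaques 11 rose (median 1.57). A gene above 1 CPM in every mouse of only 1 group could enter the test. Among the gene lists used here, which genes did so was examined only for the sialic acid-binding receptors. No marker of border macrophages passed the test in 4 measured well enough (1 had an unadjusted p under 0.05, and DESeq2 called 1 and limma-voom 0), and their sum was 13.3 to 17.6 CPM in NTG and 17.3 to 22.6 CPM in APP/PS1 mice. Only 1 of 12 blood leukocyte markers was abundant enough to test, Ly6c2, with a log2 fold change of 0.74 ± 0.20 (adjusted p = 0.0598), which DESeq2, limma-voom, a fit of all 3 groups and the fit without APP/PS1 mouse 16 called. Without a filter on low counts 2 of the 12 markers rose, and the sum of the 12 stayed between 3.32 and 10.6 CPM in all mice. No neuronal marker of 10 passed (0 had an unadjusted p under 0.05, and DESeq2 and limma-voom called 0), although 1 fell without APP/PS1 mouse 16. Of 10 oligodendrocyte markers 1 rose (Cldn11), and of 10 astrocyte markers 2 fell (Fgfr3 and Slc1a2, 1 of them without APP/PS1 mouse 17, 18, 19 or 20 or NTG mouse 8, 9 or 10). Of 8 dentate gyrus markers 1 fell, Tdo2. The number was 2 with DESeq2, limma-voom, RLE factors, 2 other filters on low counts, a fit of all 3 groups or without NTG mouse 7. It was 3 without mouse 16 and 0 with the ribosomal RNA-like share as a covariate. The sum of the 8 was 327 to 372 CPM in NTG, 227 to 312 CPM in APP/PS1 and 286 to 309 CPM in CP2-treated mice. Its part in the values of the 10 genes was not tested. None of 8 thalamic or 9 striatal markers passed (0 and 1 at an unadjusted p under 0.05, and 0 by DESeq2 and limma-voom), although 1 striatal marker fell without mouse 16. No marker of any list was at 0 in a whole group. APP/PS1 mouse 16 stood apart by its striatal markers, whose sum was 2549 CPM against 202 to 390 CPM in the other 13 mice. It also had the lowest sums of the thalamic markers (158 CPM against 281 to 555 CPM) and of the dentate gyrus markers (227 CPM against 285 to 372 CPM). Values without this mouse are therefore given beside the results. Total counts per library were 70548781 to 106235625, and 2.40 to 7.50% of them fell on 2 ribosomal RNA-like genes.

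Per transcript length, the 10 genes spanned a wide range. In NTG mice Bin1 had the highest level at 73.7 ± 3.5 RPKM (authors' values, mean ± SD, n = 4), followed by Ptk2b at 40.7 ± 6.1, Picalm at 27.6 ± 2.0 and Sorl1 at 26.5 ± 0.62. Picalm and Sorl1 overlapped between mice, whereas the steps from Bin1 to Ptk2b and from Ptk2b to Picalm did not. Abi3 at 4.58 ± 0.19 and Cd2ap at 3.59 ± 0.16 RPKM came next. The level of Abi3 may hold reads of opposite-strand genes that share its exon bases, and their share was not tested. The RPKM of Bin1 rests on a length of 2451 bases, whereas its exons in GENCODE M21 hold 4117 bases. A longer length would lower its RPKM, so its step above Ptk2b depends on the length used. The lowest levels were those of Cd33 (1.52 ± 0.08), Inpp5d (1.34 ± 0.09), Plcg2 (1.04 ± 0.13) and Spi1 (0.946 ± 0.108). Of these, Cd33 overlapped Inpp5d and Plcg2 overlapped Spi1. In APP/PS1 mice the order of the first 6 genes was the same, and Inpp5d (3.16 ± 0.58 RPKM), Cd33 (2.58 ± 0.50), Spi1 (2.36 ± 0.38) and Plcg2 (2.11 ± 0.43) followed, each overlapping its neighbor. In CP2-treated mice these 4 were at 2.69 ± 0.53, 2.36 ± 0.31, 2.01 ± 0.41 and 1.88 ± 0.35 RPKM in the same order.

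**Figure D1:**
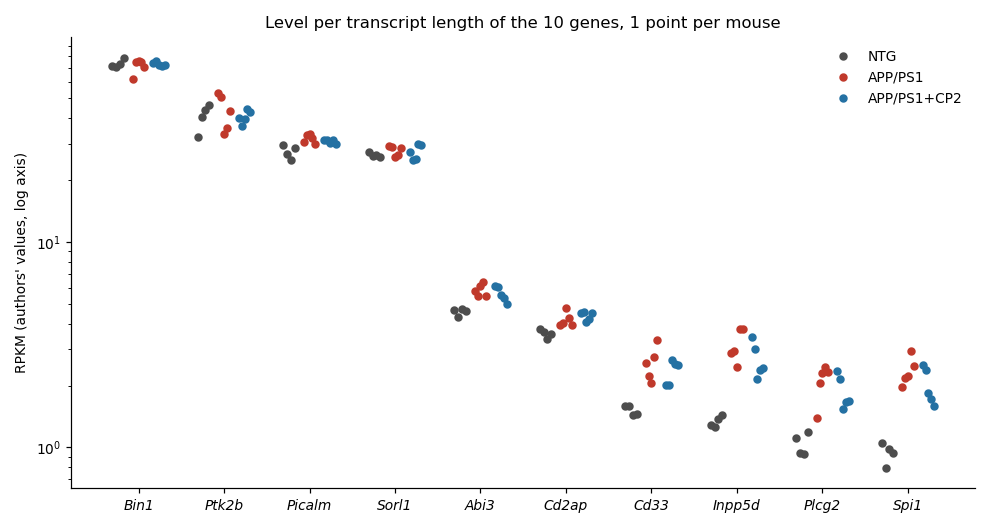
Level of the 10 genes per transcript length, as RPKM computed by the authors, on a log axis; each point is 1 mouse, colored by group, and genes are ordered by their mean in NTG mice. Bin1, Ptk2b, Picalm and Sorl1 lie between 25.0 and 78.8 RPKM in all mice, and Cd33, Inpp5d, Plcg2 and Spi1 lie between 0.798 and 3.78 RPKM.

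Because the product of Spi1 is itself a DNA-binding factor, the 250 bases before the transcription start of the other members were searched for GAGGAA, the core of the purine-rich sequence that PU.1 is known to bind, on both strands. RefSeq windows (build GRCm38.p6) were matched for 6 of the 10 members. Among all 32851 RefSeq windows of this length, 23.3% held GAGGAA and 2.44% held the longer GAGGAAGT, which contains it. Windows of Inpp5d, Plcg2 and Picalm are shown because they hold 1, 0 and 2 matches, and because Inpp5d and Plcg2 rose in APP/PS1 mice and Picalm did not pass the test; GAGGAA is in capitals, and each is written 5′ to 3′ on the gene's own strand (+ in all 3), ending just before the start.
Inpp5d, chr1:87620062-87620311: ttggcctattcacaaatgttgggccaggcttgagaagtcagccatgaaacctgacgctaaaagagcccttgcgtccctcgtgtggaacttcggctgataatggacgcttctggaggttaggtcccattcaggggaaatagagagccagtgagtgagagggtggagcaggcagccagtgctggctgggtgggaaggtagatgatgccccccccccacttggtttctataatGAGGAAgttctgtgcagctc
Plcg2, chr8:117498025-117498274: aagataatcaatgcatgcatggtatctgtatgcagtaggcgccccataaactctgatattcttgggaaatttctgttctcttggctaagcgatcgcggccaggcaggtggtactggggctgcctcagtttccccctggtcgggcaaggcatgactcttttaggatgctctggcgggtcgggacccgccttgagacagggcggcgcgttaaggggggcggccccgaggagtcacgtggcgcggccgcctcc
Picalm, chr7:90129963-90130212: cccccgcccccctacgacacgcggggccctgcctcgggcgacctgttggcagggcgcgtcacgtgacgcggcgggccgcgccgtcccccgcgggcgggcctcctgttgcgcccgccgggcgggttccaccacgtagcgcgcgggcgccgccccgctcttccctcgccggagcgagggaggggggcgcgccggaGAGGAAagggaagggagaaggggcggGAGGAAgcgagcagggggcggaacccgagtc
In Inpp5d the match began 20 bases before the start and was part of the 1 GAGGAAGT among the members' windows. In Picalm the matches began 57 and 31 bases before the start. The window of Cd33 held 1 match, 226 bases before the start, in a stretch that is also exon of another Cd33 transcript, and those of Cd2ap and Sorl1 held none. Of the 250 bases of the Cd2ap window, 241 are also exon. A match is a run of letters and was not measured as binding.

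Across the set, 5 of the 10 genes rose in APP/PS1 over NTG mice and none fell, while 4.34% of the 16417 genes tested rose and 1.34% fell. The 5 were Spi1, Inpp5d, Plcg2, Cd33 and Abi3. In 6 of the 10 (these and Picalm) every APP/PS1 mouse was above every NTG mouse, which was so for 5.93% of all genes, and in none was every APP/PS1 mouse below (4.11% of all genes). The median log2 fold change of the 10 genes was 0.23, against -0.00421 over all genes tested. Without any 1 of NTG mice 7, 8, 9 and 10 the number that rose was 3 (Spi1, Inpp5d and Plcg2), since Cd33 and Abi3 lost their calls, and without APP/PS1 mouse 16 it was 5.

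Spi1 (ENSMUSG00000002111, mm10 chromosome 2, 91082390 to 91115756) had the largest fold change of the 10 genes in APP/PS1 mice. Its normalized level was 3.51, 2.78, 3.39 and 3.07 CPM in NTG mice 7 to 10, 6.40, 6.78, 7.03, 9.50 and 8.38 CPM in APP/PS1 mice 16 to 20, and 8.08, 7.61, 6.27, 5.52 and 5.11 CPM in CP2-treated mice 21 to 25. Every transgenic mouse was above every NTG mouse, and the 2 transgenic groups overlapped. Spi1 rose 2.40-fold in APP/PS1 over NTG mice (log2 fold change 1.26 ± 0.14 SE, 95% confidence interval 0.95 to 1.58, edgeR adjusted p = 0.000696) and 2.06-fold in CP2-treated APP/PS1 over NTG mice (1.04 ± 0.15, adjusted p = 0.00205). Without mouse 16 the first value was 1.32. These values rest on 187 to 768 read counts per mouse.

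Cd33 (ENSMUSG00000004609, chromosome 7, 43527456 to 43533171), whose human counterpart dampens activating signals when it binds sialic acid, was raised less. Its level was 5.05, 5.28, 4.71 and 4.52 CPM in NTG mice 7 to 10, 8.0, 6.58, 6.17, 8.44 and 10.6 CPM in APP/PS1 mice 16 to 20, and 6.2, 6.11, 8.59, 7.88 and 7.76 CPM in CP2-treated mice 21 to 25. Neither transgenic group overlapped the NTG mice. Cd33 rose 1.64-fold in APP/PS1 mice (log2 0.71 ± 0.16, edgeR adjusted p = 0.0260) and 1.51-fold in CP2-treated mice (log2 0.59 ± 0.11, adjusted p = 0.0123) over NTG mice. The first call was lost when any 1 NTG mouse was left out (adjusted p 0.0557 to 0.0870) and without APP/PS1 mouse 19 (0.0635), with log2 fold changes of 0.68 to 0.75, and it was kept without mouse 16 (0.71, adjusted p = 0.0257).

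Among the CP2-treated mice, Cd33 was lowest in mice 21 and 22, whereas Spi1, Inpp5d, Plcg2 and Abi3 were each highest in those same 2 mice, as were the summed microglia markers (1283 and 1348 CPM, against 907 to 1080 CPM in mice 23 to 25). This pattern was noted after the values were seen and was not tested.

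Inpp5d (ENSMUSG00000026288, chromosome 1, 87620312 to 87720507), whose product SHIP1 removes a phosphate from the lipid messenger made by PI3 kinase, moved almost as far as Spi1. Its level was 12.04, 12.4, 13.4 and 13.2 CPM in NTG mice 7 to 10, 26.4, 25.9, 21.8, 34.4 and 35.4 CPM in APP/PS1 mice 16 to 20, and 31.2, 27.2, 20.6, 21.7 and 22.04 CPM in CP2-treated mice 21 to 25. The NTG mice lay close together and below every transgenic mouse. Inpp5d rose 2.27-fold (log2 1.18 ± 0.14, edgeR adjusted p = 0.00109) in APP/PS1 mice and 1.94-fold (log2 0.96 ± 0.12, adjusted p = 0.00105) in CP2-treated mice over NTG mice. Without mouse 16 the first log2 fold change was 1.21.

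Plcg2 (ENSMUSG00000034330, chromosome 8, 117498291 to 117635140) encodes phospholipase C gamma 2, which cleaves membrane lipid below TREM2 and Fc receptors. Its level was 5.90, 5.25, 5.07 and 6.13 CPM in NTG mice 7 to 10, 7.21, 10.2, 11.6, 12.6 and 12.4 CPM in APP/PS1 mice 16 to 20, and 12.1, 10.9, 8.33, 8.57 and 8.66 CPM in CP2-treated mice 21 to 25. Mouse 16 was the lowest transgenic mouse and still lay above every NTG mouse. Plcg2 rose 1.95-fold (log2 0.96 ± 0.16, edgeR adjusted p = 0.00656) in APP/PS1 mice and 1.75-fold (log2 0.81 ± 0.13, adjusted p = 0.00370) in CP2-treated mice over NTG mice. Without mouse 16 the first log2 fold change was 1.07 (adjusted p = 0.000119).

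Abi3 (ENSMUSG00000018381, chromosome 11, 95830074 to 95842476), a part of the WAVE complex that drives actin branching, had the smallest change of the 5 genes that rose in APP/PS1 mice. Its level was 23.98, 23.1, 25.1 and 23.1 CPM in NTG mice 7 to 10, 28.9, 26.2, 29.5, 31.8 and 28.2 CPM in APP/PS1 mice 16 to 20, and 30.2, 29.7, 28.7, 26.6 and 24.9 CPM in CP2-treated mice 21 to 25. Only the CP2-treated group overlapped the NTG mice, through mouse 25, which was just under NTG mouse 9. Abi3 rose 1.22-fold in APP/PS1 mice (log2 0.29 ± 0.06, edgeR adjusted p = 0.0278) and 1.19-fold in CP2-treated mice (log2 0.25 ± 0.06, adjusted p = 0.0425) over NTG mice. The first call was lost without any 1 of the NTG mice (adjusted p 0.0550 to 0.0850), without APP/PS1 mouse 18 (0.0657) or 20 (0.0529), and with the ribosomal RNA-like share as a covariate (0.0591). The second held in 1 of 9 fits that left out a mouse, the one without CP2-treated mouse 25.

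The Abi3 counts are also uncertain because of its position. Of its 4153 exon bases in GENCODE M21, 3147 (75.8%) are also exon of genes on the opposite strand, 2913 of them of Zfp652, 1708 of Phospho1 and 234 of Gngt2. The library kit does not mark strand and the authors counted a read on every gene it overlapped, so reads from these bases cannot be told apart. Zfp652, a zinc finger gene, had 84.5 to 91.4 CPM in NTG mice, and its log2 fold change in APP/PS1 mice was 0.03 ± 0.06 (adjusted p = 0.819); that of Phospho1, a phosphatase gene with 21.6 to 23.9 CPM in NTG mice, was -0.07 ± 0.07 (adjusted p = 0.701). Gngt2, a G protein subunit gene, rose (1.40 ± 0.17, adjusted p = 0.00111) from 1.56 to 1.97 CPM in NTG mice to 3.73 to 6.32 CPM in APP/PS1 mice. The share of Abi3 reads that came from these neighbors was not tested. The other overlaps were small, with 256 of 4117 exon bases of Bin1 and 185 of 11321 of Sorl1, and no exon base of Plcg2.

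Ptk2b (ENSMUSG00000059456, chromosome 14, 66153257 to 66281052) varied more between mice of a group than between groups. Its level was 295, 387, 412 and 413 CPM in NTG mice 7 to 10, 474, 435, 288, 316 and 398 CPM in APP/PS1 mice 16 to 20, and 355, 321, 368, 393 and 381 CPM in CP2-treated mice 21 to 25. The highest and the lowest of the 14 values were both in APP/PS1 mice, mouse 16 and mouse 18. The log2 fold change in APP/PS1 over NTG mice was 0.03 ± 0.15 (95% confidence interval -0.32 to 0.37, edgeR adjusted p = 0.950), and it was -0.06 without mouse 16, so no direction can be given. In CP2-treated over NTG mice it was -0.04 ± 0.10 (adjusted p = 0.869).

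**Figure D2:**
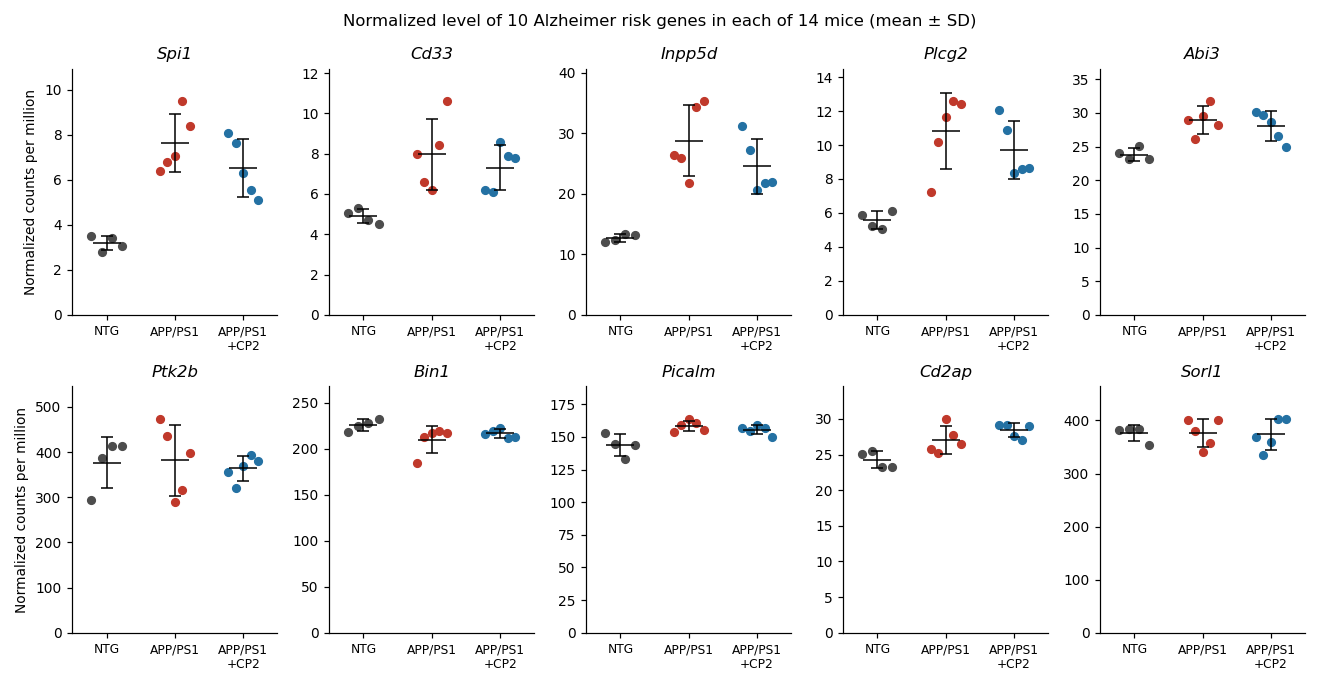
Normalized CPM (linear axes from 0) of each gene in the 14 mice; points are mice in order of their number, and bars give the group mean ± SD. All 10 transgenic mice lie above the 4 NTG mice for Spi1, Cd33, Inpp5d and Plcg2, and the groups overlap for Ptk2b, Bin1 and Sorl1.

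Of the endocytosis and sorting genes, none passed the test in APP/PS1 over NTG mice, and 1, Cd2ap, rose in CP2-treated over NTG mice, in which 4.56% of all genes rose. Bin1 (ENSMUSG00000024381, chromosome 18, 32377217 to 32435736), which bends membranes at sites of endocytosis, had 218, 225, 228 and 233 CPM in NTG mice 7 to 10, 184, 212, 218, 219 and 217 CPM in APP/PS1 mice 16 to 20, and 216, 220, 223, 212 and 213 CPM in CP2-treated mice 21 to 25. Mouse 16 was the lowest of all, and the groups overlapped at 218 to 219 CPM. The log2 fold change in APP/PS1 mice was -0.10 ± 0.06 (edgeR adjusted p = 0.435) and -0.06 without mouse 16; in CP2-treated over NTG mice it was -0.05 ± 0.03 (adjusted p = 0.482).

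Picalm (ENSMUSG00000039361, chromosome 7, 90130232 to 90209447), a clathrin adaptor, had 153, 145, 133 and 144 CPM in NTG mice 7 to 10, 154, 159, 164, 160 and 155 CPM in APP/PS1 mice 16 to 20, and 157, 155, 159, 157 and 150 CPM in CP2-treated mice 21 to 25. Every APP/PS1 mouse was above every NTG mouse, with a gap between the groups from 152.9 to 154.0 CPM. The log2 fold change was 0.15 ± 0.05 (95% confidence interval 0.04 to 0.26, edgeR adjusted p = 0.129), and the gene passed the threshold with DESeq2 (0.0378), in a fit of all 3 groups (0.0419) and with limma-voom (0.0436). Without mouse 16 the value was 0.16 (adjusted p = 0.0915). In CP2-treated over NTG mice it was 0.12 ± 0.04 (adjusted p = 0.138).

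Cd2ap (ENSMUSG00000061665, chromosome 17, 42792951 to 42876424), an adaptor that links endocytosis to actin, had 25.1, 25.5, 23.3 and 23.2 CPM in NTG mice 7 to 10, 25.8, 25.2, 30.0, 27.7 and 26.5 CPM in APP/PS1 mice 16 to 20, and 29.1, 29.2, 27.6, 27.1 and 29.1 CPM in CP2-treated mice 21 to 25. All CP2-treated mice were above all NTG mice, and APP/PS1 mouse 17 was not. Cd2ap rose 1.18-fold in CP2-treated over NTG mice (log2 0.24 ± 0.05, edgeR adjusted p = 0.0211), and its log2 fold change was 0.16 ± 0.07 in APP/PS1 over NTG mice (adjusted p = 0.208), or 0.18 without mouse 16. The call was lost without NTG mouse 9 (0.0712) or 10 (0.0714) and without CP2-treated mouse 21 (0.0592) or 22 (0.0537). Markers of endothelium, a cell type that also uses Cd2ap, rose in 4 of 10 cases in CP2-treated mice and 1 of 10 in APP/PS1 mice over NTG mice (1 and 2 in a fit of all 3 groups, 2 and 2 with the ribosomal RNA-like share as a covariate; the 4 became 1 without NTG mouse 10 and 2 without NTG mouse 8 or CP2-treated mouse 24 or 25), and their part in the Cd2ap values was not tested.

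Sorl1 (ENSMUSG00000049313, chromosome 9, 41964720 to 42124297), a receptor that steers the amyloid precursor protein between endosome and Golgi, was the gene with the smallest fold changes. Its level was 383, 384, 384 and 354 CPM in NTG mice 7 to 10, 402, 380, 341, 358 and 401 CPM in APP/PS1 mice 16 to 20, and 368, 335, 360, 404 and 403 CPM in CP2-treated mice 21 to 25. The range of each transgenic group held that of the NTG mice. The log2 fold changes against NTG mice were 0.01 ± 0.06 (95% confidence interval -0.13 to 0.14, edgeR adjusted p = 0.967) in APP/PS1 mice, or -0.0190 without mouse 16, and 0.00361 ± 0.0612 (adjusted p = 0.985) in CP2-treated mice.

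The comparison of CP2-treated with vehicle-treated APP/PS1 mice asked whether the compound moved these genes. None of the 10 genes passed the edgeR quasi-likelihood test, and 1 of 16407 genes (0.00609%) did. None had an unadjusted p under 0.05, as 6.55% of all genes did, and DESeq2 and limma-voom called 0. The 5 genes that had risen in APP/PS1 mice had values below 0, with log2 fold changes of -0.23 ± 0.16 for Inpp5d (95% confidence interval -0.57 to 0.12), -0.22 ± 0.15 for Spi1 (-0.56 to 0.11), -0.15 ± 0.16 for Plcg2 (-0.51 to 0.20), -0.13 ± 0.16 for Cd33 (-0.47 to 0.22) and -0.05 ± 0.07 for Abi3 (-0.19 to 0.10). Their adjusted p ranged from 0.780 to 0.890. The intervals of Inpp5d and Spi1 thus reach down to folds of 0.673 and 0.678. The other genes were nearer 0 or more narrowly bounded, with Ptk2b at -0.07 ± 0.13 (-0.35 to 0.21), Bin1 at 0.05 ± 0.05 (-0.06 to 0.16), Picalm at -0.03 ± 0.03 (-0.10 to 0.04), Cd2ap at 0.07 ± 0.05 (-0.05 to 0.19) and Sorl1 at -0.01 ± 0.07 (-0.16 to 0.14). Without APP/PS1 mouse 16 the values were -0.28 for Spi1, -0.27 for Plcg2, -0.26 for Inpp5d, -0.12 for Cd33 and -0.04 for Abi3, with adjusted p of 0.521 to 0.854. The sign turned for Ptk2b (0.0188) and Sorl1 (0.0178), and Bin1, Picalm and Cd2ap were at 0.00342, -0.0373 and 0.0562. No gene of the set had groups without overlap, as 1.14% of all genes did.

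In CP2-treated APP/PS1 over NTG mice 6 of the 10 genes rose and none fell, while 4.56% of 16416 genes rose and 1.46% fell. They were the same 5 genes and Cd2ap. In 5 (Spi1, Cd33, Inpp5d, Plcg2 and Cd2ap) every CP2-treated mouse was above every NTG mouse, as in 6.0% of all genes, and in none was every one below (3.61%). This comparison shares its NTG mice with the first and its CP2-treated mice with the second, so the 3 sets of values are not independent.

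**Figure D3:**
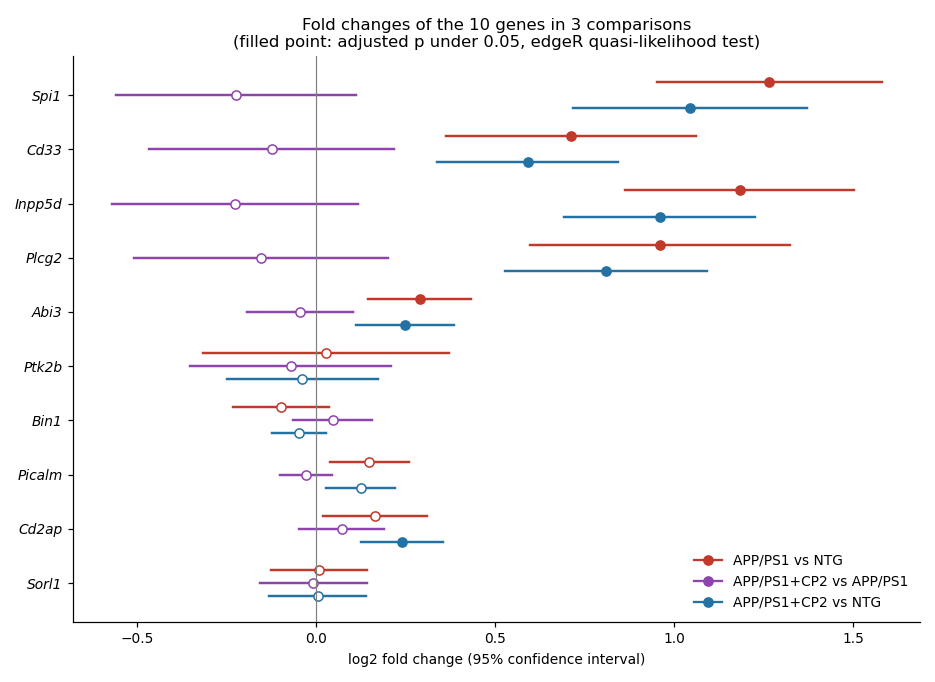
log2 fold changes with 95% confidence intervals of the 10 genes in the 3 comparisons (red, APP/PS1 over NTG; purple, CP2-treated over vehicle-treated APP/PS1; blue, CP2-treated APP/PS1 over NTG); filled points passed the edgeR test. The intervals of the CP2 comparison all include 0, and those of Spi1, Cd33, Inpp5d, Plcg2, Abi3, Picalm and Cd2ap against NTG mice lie above 0, Picalm without passing the test in either comparison.

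To see which genes moved with the microglia content of the tissue, the mean log2 CPM of the 12 microglia markers was subtracted from that of each gene in each mouse. Spi1 was at -3.26, -3.62, -3.28 and -3.39 in NTG mice 7 to 10 and at -3.25, -3.36, -3.37, -3.29 and -3.58 in APP/PS1 mice 16 to 20. The groups overlapped and their means differed by 0.02. Inpp5d also overlapped, with group means of -1.39 and -1.46, and so did Plcg2, with -2.58 and -2.88. Cd33, although it rose in the tissue, was lower in every APP/PS1 mouse than in any NTG mouse on this scale (-3.56 to -2.93 against -2.84 to -2.70), and so was Abi3 (-1.83 to -1.08 against -0.57 to -0.40). Of the exon bases of Abi3, 75.8% are shared with genes on the opposite strand. The part of their reads in the relative values of Abi3 was not tested. Ptk2b, Bin1, Picalm, Cd2ap and Sorl1 were lower by 1.07 to 1.33. In all, 7 of 10 genes were lower without overlap and none was higher, against 91.9% and 0.378% of all genes tested. In CP2-treated mice the same 7 genes were lower than in NTG mice without overlap (93.2% of all genes) and none was higher (0.335%). The margin of Cd33 was narrow there, with a highest CP2-treated mouse at -2.844 and a lowest NTG mouse at -2.840. With and without CP2, the APP/PS1 mice overlapped for all 10 genes on this scale, on which 0.536% of all genes were higher and 0.0244% lower without overlap.

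These relative values depend on the markers used. Against the 10 homeostatic microglia markers, whose median log2 fold change was smaller, Spi1 (by 0.72) and Inpp5d (by 0.63) were higher in every APP/PS1 mouse than in any NTG mouse, Cd33 and Plcg2 overlapped, and Abi3 was lower by 0.24. On this scale Bin1, Picalm and Sorl1 were still lower without overlap, by 0.63, 0.38 and 0.52. Of all genes tested, 1.62% were higher and 66.5% lower without overlap on it. Of the set named microglial, Spi1, Inpp5d, Plcg2, Cd33 and Abi3 rose in the tissue in which the microglia markers rose, and Ptk2b, Bin1, Picalm, Cd2ap and Sorl1 did not pass the test there.

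**Figure D4:**
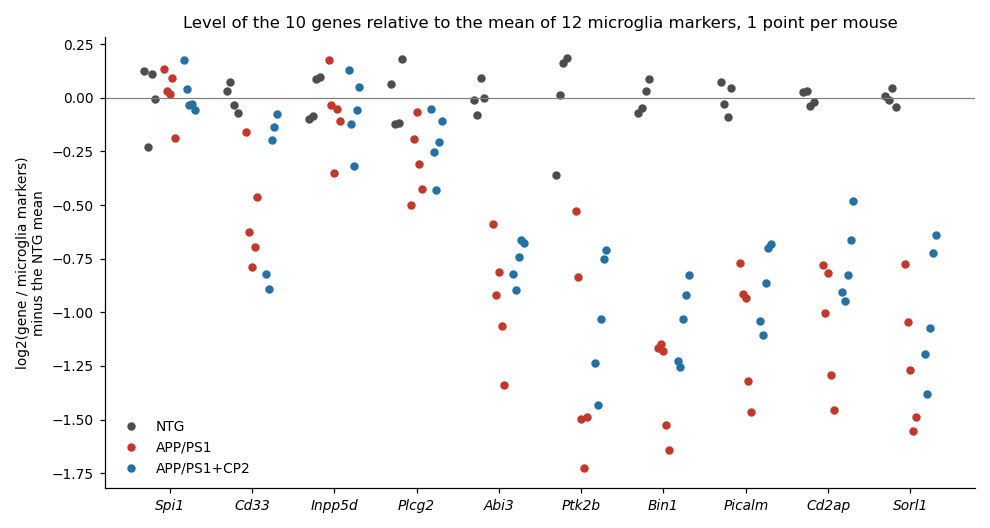
Level of each gene relative to the mean of 12 microglia markers (difference of log2 CPM), minus the mean of that difference in NTG mice; each point is 1 mouse. Spi1, Inpp5d and Plcg2 in transgenic mice overlap the NTG mice, and the 7 other genes lie below all NTG mice.

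The partners of these genes were taken list by list, and the lists were also chosen with earlier results known. Of 15 genes of the TREM2 and ITAM signal chain other than the 10, 13 rose in APP/PS1 over NTG mice (median log2 fold change 1.04). Trem2 itself rose by 2.46 ± 0.18 (edgeR adjusted p = 0.000119), its adaptor Tyrobp by 2.12 ± 0.16, the related adaptor Fcer1g by 1.98 ± 0.17, the phosphatase Ptpn6 by 1.64 ± 0.18 and the PI3 kinase subunit Pik3cg by 1.24 ± 0.13, all on the log2 scale. Inpp5d and Plcg2, at 1.18 and 0.96, were thus below Trem2 and Tyrobp and near the median of this list. The 2 that did not pass were Grb2 and Pik3cd.

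Of 6 other sialic acid-binding receptors, Siglech and Siglec1 were above 1 CPM in every NTG mouse, and they rose by 1.11 ± 0.09 and 1.13 ± 0.26 (adjusted p = 0.0294). Siglec1 kept its call in 3 of 9 fits without 1 mouse. Cd22 (0.253 to 0.556 CPM in NTG and 1.69 to 3.95 CPM in APP/PS1 mice) and Siglecf (0.581 to 0.920 and 1.21 to 1.83 CPM) passed the filter on low counts only through the APP/PS1 mice, so they could enter the test only by being higher there, and their calls add nothing. Siglece and Siglecg were too low to test.

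In the WAVE complex 2 of 10 genes other than Abi3 rose and none fell. They were Nckap1l, the subunit of blood and myeloid cells, by 1.21 ± 0.10, and Wasf2 by 0.36 ± 0.08 (adjusted p = 0.0350). The other 8 did not pass and ranged from Nckap1 at -0.33 ± 0.10 (adjusted p = 0.0956) to Cyfip1 at 0.09 ± 0.06 (0.489), and the median of the 10 was 0.03. Wasf2 lost its call without any 1 of the NTG mice and without APP/PS1 mice 18, 19 or 20, leaving 1 gene, and without mouse 16 there were 2 genes that fell, as with DESeq2 and limma-voom. Of 11 tested myeloid transcription factors other than Spi1, 6 rose, among them Irf8 (1.72 ± 0.18), Runx1 (1.63 ± 0.21), Cebpa (1.07 ± 0.14) and Irf5 (0.37 ± 0.06), with Spi1 at 1.26 between Runx1 and Cebpa.

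The partners of the endocytosis and sorting genes were close to 0. Of 20 clathrin endocytosis genes none passed the edgeR test (3 had an unadjusted p under 0.05, and DESeq2 and limma-voom each called 1), and their median log2 fold change was -0.04. Dnm2, the widely expressed dynamin, had the smallest p, with 0.25 ± 0.07 (adjusted p = 0.0593), and passed without mouse 16 (0.0400). Of 16 retromer and VPS10 sorting genes none passed (1 had an unadjusted p under 0.05, DESeq2 called 1 and limma-voom 0), with a median of -0.02. In CP2-treated over vehicle-treated APP/PS1 mice, none of 93 partner genes passed (5 had an unadjusted p under 0.05, and DESeq2 and limma-voom called 0), and in CP2-treated APP/PS1 over NTG mice 27 of 92 rose and 1, Abi1, fell by 0.18 ± 0.04 (adjusted p = 0.0341). That call was lost in a fit of all 3 groups, without a filter, with the ribosomal RNA-like share as a covariate, and without CP2-treated mouse 21, 22, 23 or 24 or NTG mouse 8, 9 or 10. Cd22, among the 27, had 0.253 to 0.556 CPM in NTG and 1.47 to 2.39 CPM in CP2-treated mice. It passed the filter on low counts only through the CP2-treated mice, so its call adds nothing.

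**Figure D5:**
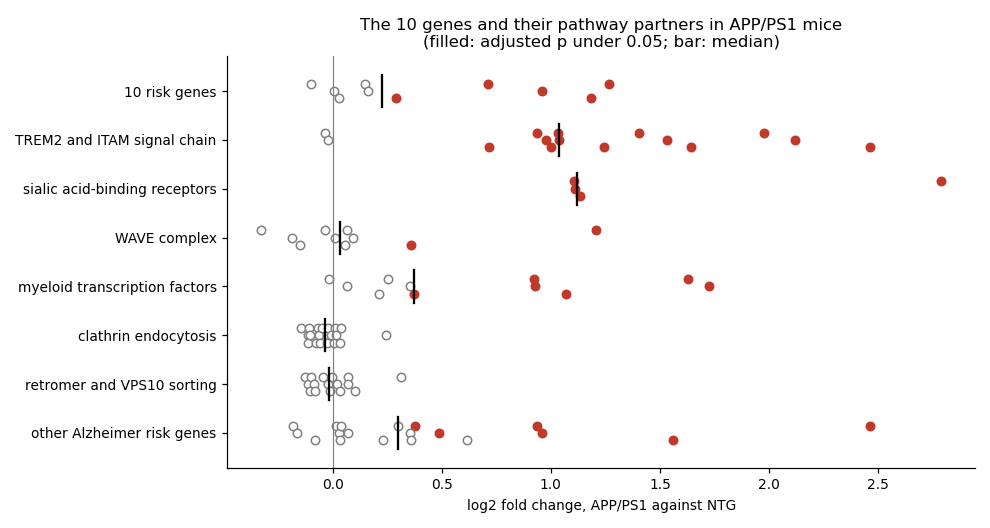
log2 fold changes in APP/PS1 over NTG mice of the 10 genes and of 7 lists of partner genes; red filled points passed the edgeR test, and vertical bars are medians. The TREM2 and ITAM signal chain has a median of 1.04 with 13 of 15 genes filled, and the clathrin and retromer lists have medians of -0.04 and -0.02 with none filled. Among the sialic acid-binding receptors, Cd22 and Siglecf could enter the test only by being higher in APP/PS1 mice.

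The closest relatives of the 10 genes allowed a comparison within families. Of 15 paralogues 13 were tested and 1 rose in APP/PS1 mice, Bin2, by 0.97 ± 0.15 (edgeR adjusted p = 0.00454). Bin2, an amphiphysin relative found in blood and myeloid cells, had 1.59 ± 0.13 RPKM in NTG and 3.24 ± 0.68 RPKM in APP/PS1 mice, whereas Bin1 had 73.7 and 71.8 RPKM, and Amph, the neuronal relative, had a log2 fold change of -0.06 ± 0.08 (adjusted p = 0.778). In 2 families the myeloid member rose and its widely used relative did not pass the test. Plcg1 had a log2 fold change of 0.05 ± 0.04 (adjusted p = 0.605) beside 0.96 for Plcg2, and Inppl1, which encodes SHIP2, had 0.31 ± 0.09 (0.0772) beside 1.18 for Inpp5d. Abi1 (-0.18 ± 0.06) and Abi2 (0.01 ± 0.09) did not pass beside Abi3, and Ptk2 (0.08 ± 0.08) did not beside Ptk2b. Spib and Siglece, the relatives of Spi1 and Cd33, were too low to test, with at most 16 and 63 reads per mouse. The relatives of Picalm, Cd2ap and Sorl1 did not pass either, with Snap91 at -0.02 ± 0.06, Sh3kbp1 at 0.21 ± 0.07 (0.164) and Sort1 at -0.11 ± 0.06 (0.313). The differences between relatives were not tested.

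A further 23 genes near other AD risk loci were examined, of which 19 were tested and 6 rose in APP/PS1 mice. Besides Trem2 these were H2-Eb1 (1.56 ± 0.35, edgeR adjusted p = 0.0303), a class II antigen-presenting gene, Ms4a6d (0.96 ± 0.19, 0.0168), the endocytic regulator Rin3 (0.94 ± 0.14, 0.00380), the lipid carrier Clu (0.38 ± 0.09, 0.0332) and Apoe. The count was 3 without APP/PS1 mouse 17 or 18 and 2 without NTG mouse 8, 9 or 10. In CP2-treated over NTG mice 3 rose, Trem2, Rin3 and Adamts1, a matrix protease (0.57 ± 0.13, adjusted p = 0.0227). H2-Eb1 stood at 0.57 ± 0.25 (0.223), Ms4a6d at 0.61 ± 0.18 (0.0801) and Clu at 0.26 ± 0.07 (0.0617), and Apoe did not pass either. DESeq2 called 5 there. In CP2-treated over vehicle-treated APP/PS1 mice none of the 19 passed (2 had an unadjusted p under 0.05, and DESeq2 and limma-voom called 0).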

How the data were processed

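RNA was prepared with Trizol per the labels (QIAzol and miRNeasy in the study's methods) and libraries with TruSeq RNA Library Prep Kit v2. Alignment by the authors was to mm10 (TopHat2), with gene totals from FeatureCounts on Ensembl genes, in which a read counted for every gene it overlapped. The strand setting is not given in the sources used here. The deposited table holds read counts without normalization and RPKM values made by the authors, used here only for levels per length and in no test. The members and gene lists were chosen with earlier results of these data known.

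Each comparison was fitted on its 2 groups over all genes in R 4.3.3 with edgeR 4.0.16 (TMM factors, glmQLFit and glmQLFTest, two-sided) and Benjamini-Hochberg adjustment, with a threshold of 0.05. Genes needed a CPM over 1 in every mouse of at least 1 group; all 10 members passed in all comparisons. The study used DESeq2 with a P value under 0.05 as its criterion. Its methods name the comparisons of NTG with APP/PS1 mice and of APP/PS1 with APP/PS1+CP2 mice. The standard error is that implied by the test statistic. CPM values per mouse use TMM factors over the 14 mice. Alternatives were DESeq2 1.42.0, limma-voom 3.58.1 with sample quality weights, RLE and upper-quartile factors, 2 other filters, a fit of all 3 groups, the ribosomal RNA-like share as a covariate, a prior count of 0.5 in place of 2, other microglia markers, and each mouse left out. Genes named from a list are those with the smallest p in APP/PS1 over NTG mice, at most 5 a list, and any single gene that makes up a count; 1 gene so selected is not reported here. Where rows share a symbol, the one with most counts was used. Counts of 26 replicate pairs differed by more than sampling noise (lowest chi-square per degree of freedom 9.87). The fits were tested on simulated data. Python 3.11.15 with pandas 2.3.3, numpy 2.4.6, scipy 1.17.1 and matplotlib 3.10.9 was used for the rest. Overlapping exons were taken from GENCODE M21. Each p-value weighs a difference between groups against the spread between mice.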

Additional observations from a re-analysis of the deposited data

Results flagged for a closer look

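Single mice far from the others of their group were sought with Dixon's test in 30 sets of values (10 genes in 3 groups), of which chance alone places about 1 in 20 past the limit, and 2 were found. Bin1 was at 184 CPM in APP/PS1 mouse 16 and at 212 to 219 CPM in the other 4 mice of that group. Sorl1 was at 353.9 CPM in NTG mouse 10 and at 382.9 to 384.2 CPM in the other 3 NTG mice. Mouse 16 was also the library with high striatal markers; its part in the Bin1 value was not tested.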

How the results depend on the processing

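No paired analysis was possible because the groups share no replicate numbers. The number of members that rose in APP/PS1 over NTG mice was 4 to 6 under the other tests, scalings, filters and covariate (4 with the covariate), and 3 to 5 when 1 mouse was left out (3 without any 1 NTG mouse). For the members' fold changes in the 3 comparisons, 4 calls were lost and 3 gained over 240 values from other settings, and 23 were lost among those that left out a mouse. All were of Cd33, Abi3, Picalm or Cd2ap, and those of Spi1, Inpp5d and Plcg2 against NTG mice were kept throughout. The sign changed only where the log2 fold change was near 0. For Ptk2b it was -0.0872 with limma-voom and -0.12 with the ribosomal RNA-like covariate in APP/PS1 over NTG mice (-0.0726 to 0.11 without 1 mouse), and 0.000461 and 0.0667 in CP2-treated over vehicle-treated APP/PS1 mice (-0.16 to 0.0188); it was -0.14 to 0.00488 without 1 mouse in CP2-treated over NTG mice. For Sorl1 it was -0.0109 with limma-voom and -0.00252 without a filter in the first comparison (-0.0190 to 0.0418), 0.00366 and, with the covariate, 0.0252 in the second (-0.0443 to 0.0288), and in the third -0.00272 with DESeq2, -0.00273 with RLE factors, -0.00340 with limma-voom, -0.00362 without a filter and -0.000770 with the covariate (-0.0393 to 0.0405). Bin1 was at -0.0160 with the covariate in the second comparison, and Cd33 at -0.21 to 0.00262 there without 1 mouse. In APP/PS1 over NTG mice Abi2 was at -0.0702 with limma-voom and -0.0675 with the covariate (-0.0759 to 0.0495), and Snap91 at 0.00664 with the covariate (-0.0647 to 0.0208). The cause was not tested. The APP/PS1 fit has 4 and 5 mice, and the lowest member, Spi1, has 187 counts in 1 mouse, which limits how small a change could be called.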

Other observations

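Beside the group differences, the genes that varied most like each member from mouse to mouse were sought among 16521 tested genes, by Pearson's r of log2 CPM over 14 mice after subtraction of the group means. The genes of a mouse share its library and its dissection, and the highest of many values were picked, so these are given as a description. Spi1 was most like Irf8 (r = 0.954), a myeloid transcription factor, Unc93b1 (0.953), which carries endosomal Toll-like receptors, and the lysosomal microglia marker Cd68 (0.953). Inpp5d was most like Il21r (0.893), Cmklr1 (0.887) and Adora3 (0.875), all cell surface receptors. Plcg2 was most like Naprt (0.963), Stat3 (0.943) and Il6st (0.934), the latter pair known from cytokine signaling. Abi3 was most like Nol3 (0.919), Rps13-ps2 (0.914) and Adprhl2 (0.884). The 3 genes most like Cd33 were Gm26833 (0.909), Gm23600 (0.840) and Gm8399 (0.830), predicted genes known by number only, and r between Cd33 and Spi1 was -0.08, while Spi1 had an r of 0.803 with Abi3, 0.760 with Inpp5d and 0.744 with Plcg2.

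Among the more abundant members, Sorl1 was most like Grin2b (0.957), Pclo (0.922) and Shprh (0.919), the first 2 being genes of glutamatergic synapses, and Ptk2b was most like Unc13a (0.980), a synaptic vesicle priming gene, Fam160a2 (0.974) and Mmp17 (0.970). Bin1 was most like Gnas (0.966), Gm20721 (0.965) and Cib2 (0.959), and these values were 0.860, 0.833 and 0.760 without APP/PS1 mouse 16. Picalm was most like Rmdn2 (0.933), Gm13443 (0.924) and Ormdl1 (0.912), and Cd2ap was most like Ifitm1 (0.899), Kif26a (0.885) and Gm17084 (0.870).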
